A study of Homo sapiens with 4 samples.

Results

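The YAP and TAZ target genes are a set of 10 genes whose transcription the coactivators YAP and TAZ are known to drive, among them feedback genes that restrain the same pathway. In the Hippo pathway a chain of kinases ending in LATS1 and LATS2 phosphorylates YAP and TAZ and keeps them out of the nucleus. When the kinases are quiet, YAP and TAZ enter the nucleus, bind TEAD transcription factors and switch on genes of the matrix, adhesion, survival and growth. Stiff substrates, cell spreading and a tensed actin skeleton are known to favour the nuclear state. The set was taken by gene symbol from the 26364 genes of the deposited count tables: ANKRD1, CYR61, CTGF, AXL, F3, NUAK2, CRIM1, MYOF, AMOTL2 and LATS2. CYR61 and CTGF are older names of CCN1 and CCN2. All 10 were found and all 10 passed the filter on low counts. They were proposed with the comparison of sh60 and LacZ already known, so their differences between the groups are given as a description, without a test.

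The samples are 4 single-end mRNA libraries of NTERA2 cells, a human embryonal carcinoma line grown in DMEM with serum. The labels name the 2 groups BEND3 sh60 (replicates 1 and 2) and BEND3 LacZ (replicates 1 and 3). Here sh60 is read as a short hairpin RNA against BEND3, which encodes a transcriptional repressor with BEN domains, and LacZ as its control; the labels give the names alone. The groups hold 1 hairpin in 1 line, and how it was delivered is not given in the sources used here. The labels do not say whether replicates were separate cultures, so the p-values rest on a spread between libraries that could be purely technical.

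The libraries held 33798665 and 44788461 counts in sh60 replicates 1 and 2, and 42538561 and 30338285 counts in LacZ replicates 1 and 3. Levels are given as CPM, counts per 1000000 of the scaled library, and 1 count was worth 0.0221 to 0.0333 CPM. BEND3 itself, at chr6:107386385-107435636 (hg19), measured 55.7 and 52.0 CPM in sh60 and 68.8 and 79.3 CPM in LacZ (log2 fold change -0.46, SE 0.098, adjusted p = 0.00168 by edgeR's quasi-likelihood test). With LacZ replicate 3 left out, the log2 fold change was -0.36 and did not pass (adjusted p = 0.154). Across all 16040 genes tested, 28.8% differed at an adjusted p of 0.05. Of the 4624 called, 2540 were higher in sh60 and 2084 lower, a split that was 2834 and 3597 once trends with GC content and gene length were removed. The label calls the line a lung carcinoma, but all 6 lung epithelium markers looked at were under 1 CPM in every library, with SFTPB and SCGB1A1 at 0. All 9 embryonal carcinoma markers were detected, at a summed 4012 to 4179 CPM in sh60 and 4318 to 4529 CPM in LacZ, and 1 of them rose, 4 fell and 4 did not pass. The 7 blood cell markers were also under 1 CPM in every library, and PTPRC, MS4A1 and HBB were at 0.

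TEAD proteins bind the letters GGAATG, and YAP and TAZ reach DNA through them, so the stretch before the start of each target gene was searched for that motif on both strands. AP-1, which often shares enhancers with TEAD, was searched as TGANTCA, and SRF by its CArG box. RefSeq promoter windows on GRCh38 matched 8 of the 10 genes, and the 250 bases before each start were used. CYR61 and CRIM1 were not matched. The TEAD motif was found before at least 1 start of 5 of the 8 genes, against 11.9% of all 35116 windows. The AP-1 motif was found in 2 of the 8, against 6.57% of windows, and the CArG box in 0 of the 8, against 1.16%. AXL and AMOTL2 have 2 windows each and so had more than 1 chance of a match. These are matches of letters, not measured binding. The windows of ANKRD1, CTGF, NUAK2 and AMOTL2 are shown because they carry the TEAD motif, and that of F3 because it carries the AP-1 motif alone. They are written 5′ to 3′ on the gene's strand, with motif letters in capitals. A TEAD match on the opposite strand reads CATTCC.
ANKRD1, chr10:90921088-90921337, minus strand: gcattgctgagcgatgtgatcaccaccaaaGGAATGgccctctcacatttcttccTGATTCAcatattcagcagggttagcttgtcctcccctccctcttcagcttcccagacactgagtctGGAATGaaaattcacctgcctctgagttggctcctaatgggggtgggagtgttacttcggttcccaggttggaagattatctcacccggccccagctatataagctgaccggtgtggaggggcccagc
CTGF, chr6:131951373-131951622, minus strand: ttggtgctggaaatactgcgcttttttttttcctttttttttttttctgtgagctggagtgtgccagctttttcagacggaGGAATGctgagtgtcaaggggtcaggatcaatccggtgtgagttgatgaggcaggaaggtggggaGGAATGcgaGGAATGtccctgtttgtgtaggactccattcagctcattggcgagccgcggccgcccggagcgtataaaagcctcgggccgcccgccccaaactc
NUAK2, chr1:205321746-205321995, minus strand: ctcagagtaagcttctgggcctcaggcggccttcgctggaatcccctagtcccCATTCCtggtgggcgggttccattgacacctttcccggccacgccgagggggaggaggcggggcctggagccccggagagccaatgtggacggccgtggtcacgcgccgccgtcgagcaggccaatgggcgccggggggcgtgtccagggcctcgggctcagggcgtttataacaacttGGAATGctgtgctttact
AMOTL2, second start, chr3:134374448-134374697, minus strand: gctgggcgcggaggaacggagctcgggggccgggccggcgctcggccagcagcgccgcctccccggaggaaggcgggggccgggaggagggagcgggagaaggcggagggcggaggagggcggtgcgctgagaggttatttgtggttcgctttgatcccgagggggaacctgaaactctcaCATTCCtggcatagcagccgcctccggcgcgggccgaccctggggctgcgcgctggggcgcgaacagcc
F3, chr1:94541760-94542009, minus strand: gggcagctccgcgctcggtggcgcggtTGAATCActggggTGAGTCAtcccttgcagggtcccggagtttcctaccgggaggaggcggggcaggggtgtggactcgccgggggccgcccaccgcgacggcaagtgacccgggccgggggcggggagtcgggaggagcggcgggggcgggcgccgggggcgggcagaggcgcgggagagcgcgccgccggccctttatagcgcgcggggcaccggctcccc

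CTGF held 3 TEAD matches, at 169 to 164, 104 to 99 and 95 to 90 bases before its start. ANKRD1 held 2 TEAD matches, at 220 to 215 and 128 to 123 bases before its start, with 1 AP-1 match between them at 195 to 189. NUAK2 held 2, one on each strand, at 197 to 192 and 18 to 13 bases before the start. AMOTL2 held 1 before its second start, at 69 to 64 bases, and AXL 1 before its second start, at 212 to 207 bases. F3 held 2 AP-1 matches, at 223 to 217 and 210 to 204 bases. For MYOF and LATS2 none of the 3 motifs was found in this window. Of the genes with the largest differences between sh60 and LacZ described next, ANKRD1 held 2 TEAD matches, MYOF 0 and AXL 1.

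**Figure D1:**
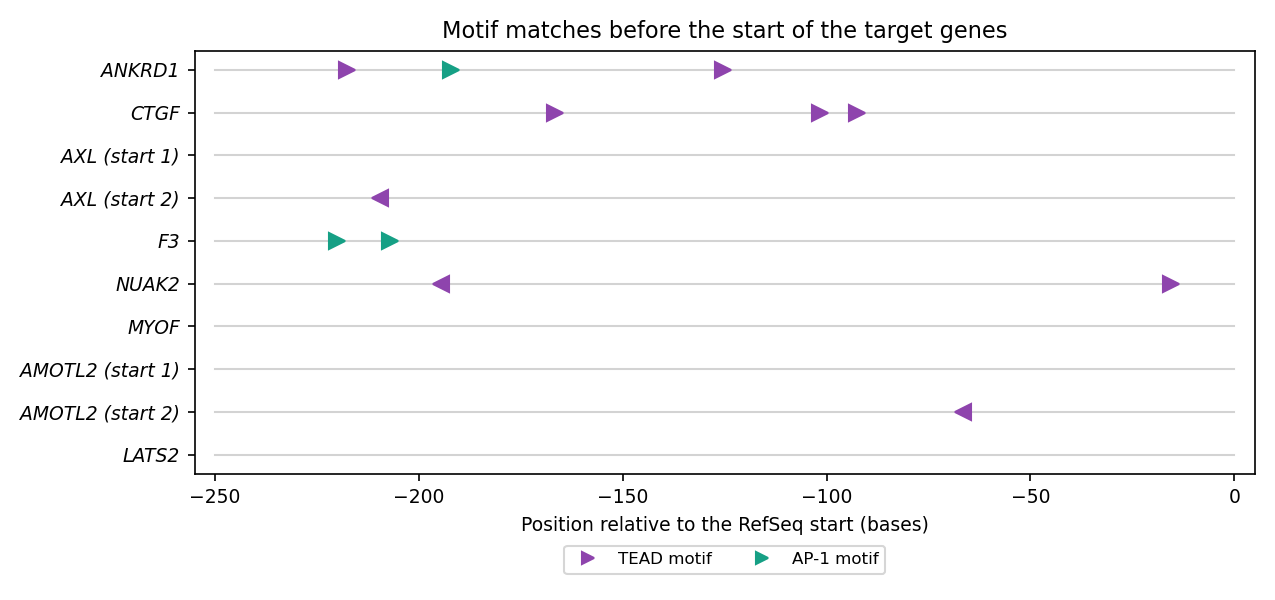
Positions of TEAD and AP-1 motif matches in the 250 bases before each RefSeq start of the target genes (x axis, bases from the start; 1 line per start). Triangles point right for the gene's own strand and left for the opposite strand. CTGF has 3 TEAD matches, ANKRD1 and NUAK2 have 2 each, and the AP-1 matches lie in F3 and ANKRD1.

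All 10 target genes were higher in both sh60 libraries than in either LacZ library. The differences ran from 1.14-fold for AMOTL2 to 5.56-fold for ANKRD1, with a median log2 fold change of 0.94, beside -0.0042 over all genes tested. Of all genes tested, 32.1% had both sh60 libraries above both LacZ libraries and 32.3% had both below. By edgeR's test 9 of the 10 were among the genes called higher, which make up 15.8% of all genes tested, and 0 of the 10 among those called lower, which make up 13.0%. Nothing is read from these counts, because the comparison helped to choose the genes.

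Among the nuclear targets, ANKRD1 encodes a cardiac ankyrin repeat protein that shuttles between the sarcomere and the nucleus in heart muscle and serves as a standard readout of YAP activity. It lies at chr10:92671857-92681032 (hg19). It measured 43.8 and 44.1 CPM in sh60 replicates 1 and 2, against 10.0 and 5.79 CPM in LacZ replicates 1 and 3. The 2 sh60 libraries were nearly equal, and the LacZ libraries lay far below them and apart from each other. The means were 43.9 ± 0.170 CPM in sh60 and 7.90 ± 2.99 CPM in LacZ (SD, n = 2 each), with a log2 fold change of 2.45 (SE 0.16). This placed ANKRD1 at rank 38 of 16040 genes ordered by fold change.

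The secreted targets CYR61 and CTGF encode matricellular proteins of the CCN family, which bind integrins and growth factors in the matrix. CYR61 (chr1:86046444-86049648) measured 28.7 and 31.0 CPM in sh60, against 17.2 and 13.1 CPM in LacZ. CTGF (chr6:132269317-132272518) measured 34.4 and 36.3 CPM in sh60, against 21.7 and 17.5 CPM in LacZ. For both genes the lower sh60 library stood well above the higher LacZ library. The log2 fold changes were 0.97 (SE 0.13) for CYR61 and 0.85 (SE 0.12) for CTGF, or 1.969-fold and 1.803-fold between group means. Per length, CYR61 stood at 0.853 and 0.874 of the CTGF level in sh60, against 0.810 and 0.767 in LacZ, so the pair kept nearly the same proportion in all 4 libraries.

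Of the 4 targets that encode proteins of the cell membrane, MYOF and AXL had the largest differences. MYOF (chr10:95066186-95242074) encodes myoferlin, a ferlin that works in membrane repair and vesicle fusion. Its level was 71.4 and 72.3 CPM in sh60, against 24.3 and 13.5 CPM in LacZ (3.80-fold, log2 fold change 1.91, SE 0.17). AXL (chr19:41725104-41767672), a receptor tyrosine kinase of the TAM family that signals survival, measured 62.6 and 70.3 CPM in sh60, against 23.5 and 16.1 CPM in LacZ (3.36-fold, log2 fold change 1.74, SE 0.14). In both genes LacZ replicate 3 was the lowest library and LacZ replicate 1 lay between it and the sh60 libraries.

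F3 (chr1:94994732-95007413) encodes tissue factor, the membrane receptor that starts blood coagulation. It measured 70.9 and 64.5 CPM in sh60, against 31.7 and 27.3 CPM in LacZ (2.29-fold, log2 fold change 1.19, SE 0.10). CRIM1 (chr2:36583370-36778278), a membrane protein with cysteine-rich repeats that binds BMPs, measured 75.4 and 73.8 CPM in sh60, against 45.3 and 37.1 CPM in LacZ (1.81-fold, log2 fold change 0.85, SE 0.10). For F3 and CRIM1 the groups were apart by more than either pair of replicates.

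Of the kinase and feedback genes, LATS2 and AMOTL2 had the smallest differences of the 10. NUAK2 (chr1:205271191-205290919), an AMPK-related kinase that is known to sustain YAP activity, measured 53.7 and 61.9 CPM in sh60, against 33.2 and 28.1 CPM in LacZ (1.89-fold, log2 fold change 0.91, SE 0.11). LATS2 (chr13:21547176-21635722), the kinase that inactivates YAP and TAZ and is itself induced by them, measured 26.5 and 23.9 CPM in sh60, against 19.6 and 16.3 CPM in LacZ (1.41-fold, log2 fold change 0.48, SE 0.12). AMOTL2 (chr3:134074187-134094259) encodes an angiomotin-like scaffold that holds YAP in the cytoplasm. Its level was 324.2 and 327.5 CPM in sh60, against 305.2 and 267.0 CPM in LacZ (1.14-fold, log2 fold change 0.19, SE 0.084). The AMOTL2 gap between sh60 replicate 1 and LacZ replicate 1 was smaller than the gap between the 2 LacZ libraries.

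**Figure D2:**
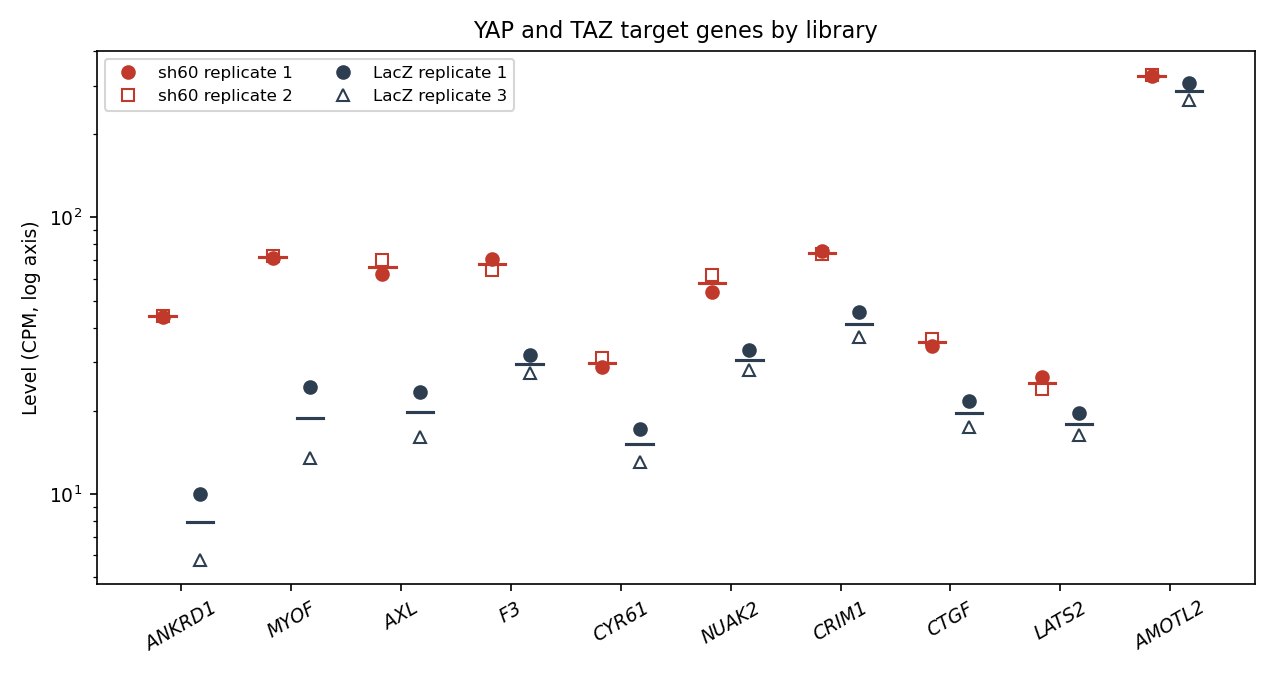
Level of each target gene in CPM (log axis) in the 2 sh60 libraries (red, left) and the 2 LacZ libraries (dark, right), with a line at each group mean, ordered by fold change. The sh60 points lie above the LacZ points for all 10 genes, widest for ANKRD1 and narrowest for AMOTL2.

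Per kilobase of exon, which allows levels of different genes to be compared, AMOTL2 was the most abundant target in both groups, at 62.2 CPM per kilobase in sh60 and 54.6 in LacZ. F3 was next, at 28.3 CPM per kilobase in sh60 and 12.3 in LacZ. ANKRD1 stood at rank 3 in sh60 (22.3 CPM per kilobase) and at rank 8 in LacZ (4.00). NUAK2, CTGF, AXL, CRIM1, CYR61, MYOF and LATS2 followed it in sh60, where AXL, CRIM1 and CYR61 had overlapping libraries and were not separated. In LacZ the neighbours NUAK2, CTGF, CRIM1 and CYR61 overlapped in turn, as did AXL, ANKRD1, LATS2 and MYOF. LATS2 was the least abundant in sh60, at 4.55 CPM per kilobase, and MYOF in LacZ, at 2.76.

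The LacZ libraries themselves differed along the same direction. LacZ replicate 1 was higher than LacZ replicate 3 for 10 of the 10 target genes, while 49.3% of all genes tested were. Among the lists described below, the same held for 12 of 12 other signature genes and 16 of 17 SRF and MRTF targets. Of the tested fibroblast markers 9 of 9 were higher, and of the wider conserved signature 37 of 50. Of the embryonal carcinoma markers 0 of 9 were. The counts were 19 of 31 for the upstream Hippo genes, 10 of 15 for paralogs and partners and 5 of 8 for coactivator, TEAD and VGLL genes. The 49.3% pools genes that were higher and genes that were lower in sh60. On the axis of largest variation over all genes tested (first principal component, 76.0% of the variance), sh60 replicates 1 and 2 scored -32.7 and -31.7. LacZ replicates 1 and 3 scored 25.4 and 38.9, so LacZ replicate 1 lay nearer to sh60 over all genes tested as well. The ratio of LacZ replicate 1 to LacZ replicate 3 was 1.79 for MYOF, 1.73 for ANKRD1 and 1.46 for AXL, the 3 genes with the largest differences between sh60 and LacZ. It was 1.31 for CYR61 and between 1.14 and 1.24 for the other 6 genes. Set against LacZ replicate 1 alone, the sh60 mean of ANKRD1 was 4.38-fold higher, and against LacZ replicate 3 alone 7.59-fold higher. For MYOF these ratios were 2.96 and 5.30, and for AXL 2.83 and 4.13. For AMOTL2 they were 1.07 and 1.22. The sign was the same whichever library was left out, and the size was not. The 10 genes had a median log2 fold change of 1.12 with LacZ replicate 1 left out and of 0.80 with LacZ replicate 3 left out.

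**Figure D3:**
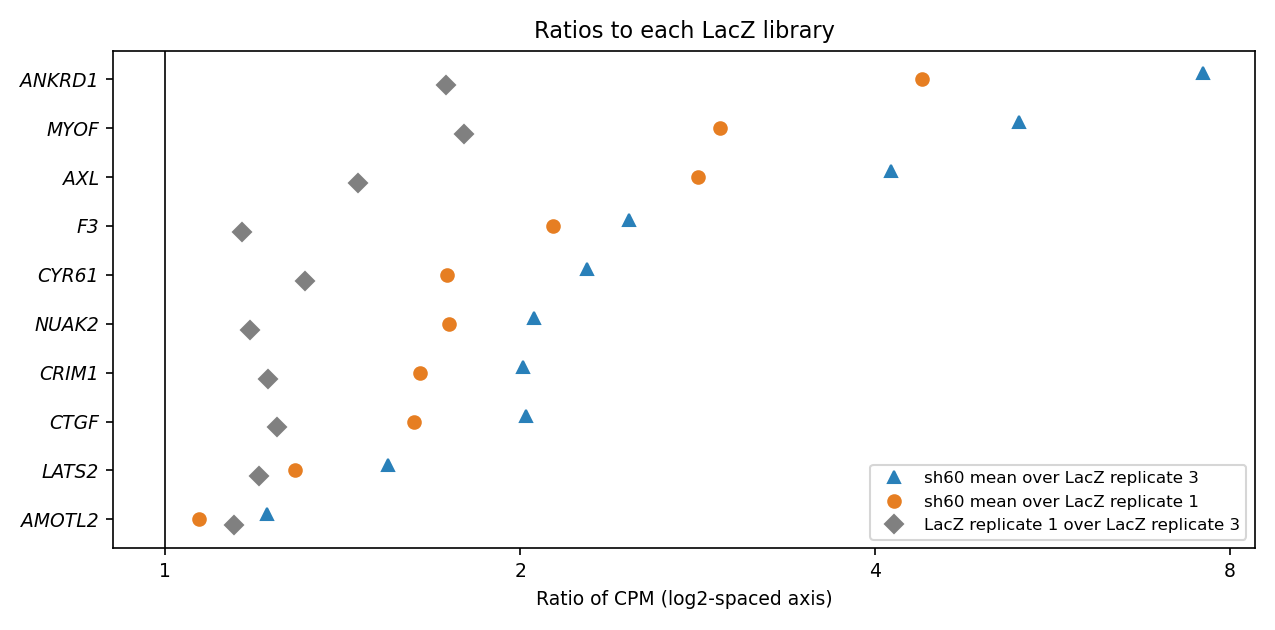
Ratios of CPM (log2-spaced axis) for each target gene: the sh60 mean over LacZ replicate 3 (triangles), the sh60 mean over LacZ replicate 1 (circles), and LacZ replicate 1 over LacZ replicate 3 (diamonds). All ratios lie above 1, and the sh60 mean of ANKRD1 is 4.38 times LacZ replicate 1 and 7.59 times LacZ replicate 3.

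The 10 genes belong to a published signature of 22 YAP and TAZ targets. The other 12 were not in the chosen set but come from the same signature. This list was also chosen with earlier results of these data known, so its counts are a description and not independent support. Of these 12, all tested, 7 rose, 1 fell and 4 did not pass edgeR's test, with a median log2 fold change of 0.35. Of all genes tested, 15.8% rose and 13.0% fell. NT5E, the ectoenzyme CD73 that makes adenosine, measured 10.5 and 9.50 CPM in sh60 and 2.04 and 1.70 CPM in LacZ (5.34-fold, adjusted p = 3.47e-08). IGFBP3, a carrier of insulin-like growth factors, measured 50.9 and 64.3 CPM in sh60 and 14.0 and 7.98 CPM in LacZ (5.23-fold, adjusted p = 4.12e-08). ARHGEF17, a guanine nucleotide exchange factor, rose by 1.06 on the log2 scale (adjusted p = 4.65e-06), and the ligand gene TGFB2 rose by 1.48 (8.35e-06). FJX1, a Golgi protein related to the fly Hippo regulator four-jointed, fell to 20.76 and 22.03 CPM in sh60, against 28.78 and 26.48 CPM in LacZ (log2 fold change -0.37, adjusted p = 0.0146). Fewer of the 12 were called without LacZ replicate 3 (5 rose, 0 fell), and FJX1 was not called without LacZ replicate 1 (adjusted p = 0.234) or LacZ replicate 3 (0.0694).

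The coactivator genes were not higher in sh60. YAP1 fell to 259.6 and 230.8 CPM in sh60, against 301.4 and 325.3 CPM in LacZ (log2 fold change -0.35, SE 0.085, edgeR adjusted p = 0.00413). WWTR1, which encodes TAZ, measured 58.5 and 52.2 CPM in sh60 and 63.2 and 59.7 CPM in LacZ and did not pass (log2 fold change -0.15, adjusted p = 0.265). Per length, WWTR1 stood at 0.240 of YAP1 in both sh60 libraries and at 0.223 and 0.195 in LacZ replicates 1 and 3. The YAP1 call was lost without LacZ replicate 3 (adjusted p = 0.192). WWTR1 passed as lower when sh60 replicate 1 was left out (0.0214) or when trends with GC and length were taken out (0.00511).

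The TEAD genes moved both ways. TEAD2 fell to 43.0 and 46.8 CPM in sh60, against 71.4 and 76.0 CPM in LacZ (log2 fold change -0.71, adjusted p = 2.02e-05). TEAD4 fell to 88.6 and 96.9 CPM in sh60, against 136.3 and 128.6 CPM in LacZ (-0.51, adjusted p = 0.000237). TEAD3 rose to 26.90 and 31.99 CPM in sh60, against 20.04 and 19.53 CPM in LacZ (0.58, adjusted p = 0.000860). The sh60 and LacZ libraries did not overlap for any of the 4 TEAD genes. This was common: 32.1% of all genes tested had both sh60 libraries above both LacZ libraries and 32.3% had both below. TEAD1 measured 141.9 and 124.8 CPM in sh60 and 117.7 and 100.04 CPM in LacZ (0.29, adjusted p = 0.0307), a call lost without LacZ replicate 1 (0.0568) or LacZ replicate 3 (0.558) and after trends with GC and length were taken out (0.0543). Among the VGLL genes, whose products compete with YAP for TEADs, VGLL3 rose 1.60-fold (adjusted p = 0.00112). In all, 3 of the 8 tested coactivator, TEAD and VGLL genes rose, 3 fell and 2 did not pass, with a median log2 fold change of -0.13, against 28.8% of all genes called (15.8% higher and 13.0% lower). After trends with GC and length were taken out, 2 rose and 4 fell.

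Upstream, the share of Hippo pathway genes called with all libraries was close to that of all genes tested. Of 31 tested kinases, adaptors and inputs other than LATS2, 6 rose, 3 fell and 22 did not pass, against 28.8% of all genes called, with a median log2 fold change of 0.090. AJUBA, a LIM protein that restrains LATS kinases, had the largest rise, to 13.3 and 13.2 CPM in sh60, against 6.51 and 4.82 CPM in LacZ (log2 fold change 1.21, adjusted p = 8.32e-06). NF2, which encodes the tumour suppressor merlin, rose 1.32-fold (adjusted p = 0.00992), FRMD6, a FERM-domain activator of the pathway, 1.29-fold (0.0161) and SLMAP, a subunit of the STRIPAK phosphatase complex, rose by 0.29 on the log2 scale (0.0269). MAP4K1, a kinase best known from blood cells, fell to 4.17 and 5.15 CPM in sh60, against 7.53 and 7.78 CPM in LacZ (adjusted p = 0.00251). AMOTL1, a scaffold, and SAV1, the adaptor of the MST kinases, fell to 0.838 and 0.824 of LacZ (0.0290 and 0.0381). The MST kinase gene STK4 and the atypical cadherin gene FAT4, named after their values were seen, rose 1.21-fold (0.0357) and 1.33-fold (0.0460). NF2, SLMAP, STK4, FAT4, AMOTL1 and SAV1 were not called when either LacZ library was left out, and FRMD6 was not called without LacZ replicate 3. In all, 3 of the 31 were called without LacZ replicate 1, 2 without LacZ replicate 3 and 14 without sh60 replicate 2. On library totals alone 8 rose and 2 fell.

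Several target genes belong to families whose other members are measured too, and these are described family by family. In the TAM receptor family, AXL was higher in sh60 while TYRO3 fell to 79.3 and 85.8 CPM in sh60, against 102.0 and 99.9 CPM in LacZ (edgeR adjusted p = 0.0190), and MERTK fell to 15.1 and 14.0 CPM in sh60, against 21.0 and 21.7 CPM in LacZ (0.00118). Per length AXL stood at 0.639 and 0.664 of TYRO3 in sh60 and at 0.187 and 0.131 in LacZ. The genes of the TAM ligands rose: GAS6 to 29.6 and 37.2 CPM in sh60, against 14.8 and 12.9 CPM in LacZ (2.41-fold, adjusted p = 8.36e-07), and PROS1, protein S, to 16.8 and 14.8 CPM in sh60, against 9.66 and 6.69 CPM in LacZ (1.93-fold, 0.000180). TYRO3 was not called without LacZ replicate 1 (0.279) or LacZ replicate 3 (0.234).

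For the other families, DYSF, the ferlin related to MYOF, fell to 0.718 of LacZ (edgeR adjusted p = 0.000886; 0.0573 without LacZ replicate 3). NOV, the CCN3 gene, rose to 5.23 and 5.63 CPM in sh60, against 2.68 and 1.63 CPM in LacZ (adjusted p = 0.000129), while WISP2 and WISP3 had 0 counts in every library. WISP1, the CCN4 gene, measured 0.940 and 1.26 CPM in sh60 and 0.689 and 0.665 CPM in LacZ and did not pass (adjusted p = 0.103). For NOV and WISP1 both sh60 libraries lay above both LacZ libraries, as they did for 32.1% of all genes tested. TFPI encodes the inhibitor of the tissue factor complex, and TFPI2 a related protease inhibitor. TFPI2 rose to 24.90 and 24.99 CPM in sh60, against 10.9 and 7.55 CPM in LacZ (log2 fold change 1.42, adjusted p = 8.95e-07), and TFPI, named after its value was seen, rose 1.72-fold (0.000337). The factor VII gene F7, the partner of tissue factor, was under 0.14 CPM in every library. NUAK1 (log2 fold change 0.0029, adjusted p = 0.986), LATS1 (0.13, 0.402) and AMOT (0.044, 0.785) did not pass. Of the 15 tested paralogs and partners, 5 rose, 4 fell and 6 did not pass, with a median log2 fold change of 0.13, against 28.8% of all genes called (15.8% higher and 13.0% lower).

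**Figure D4:**
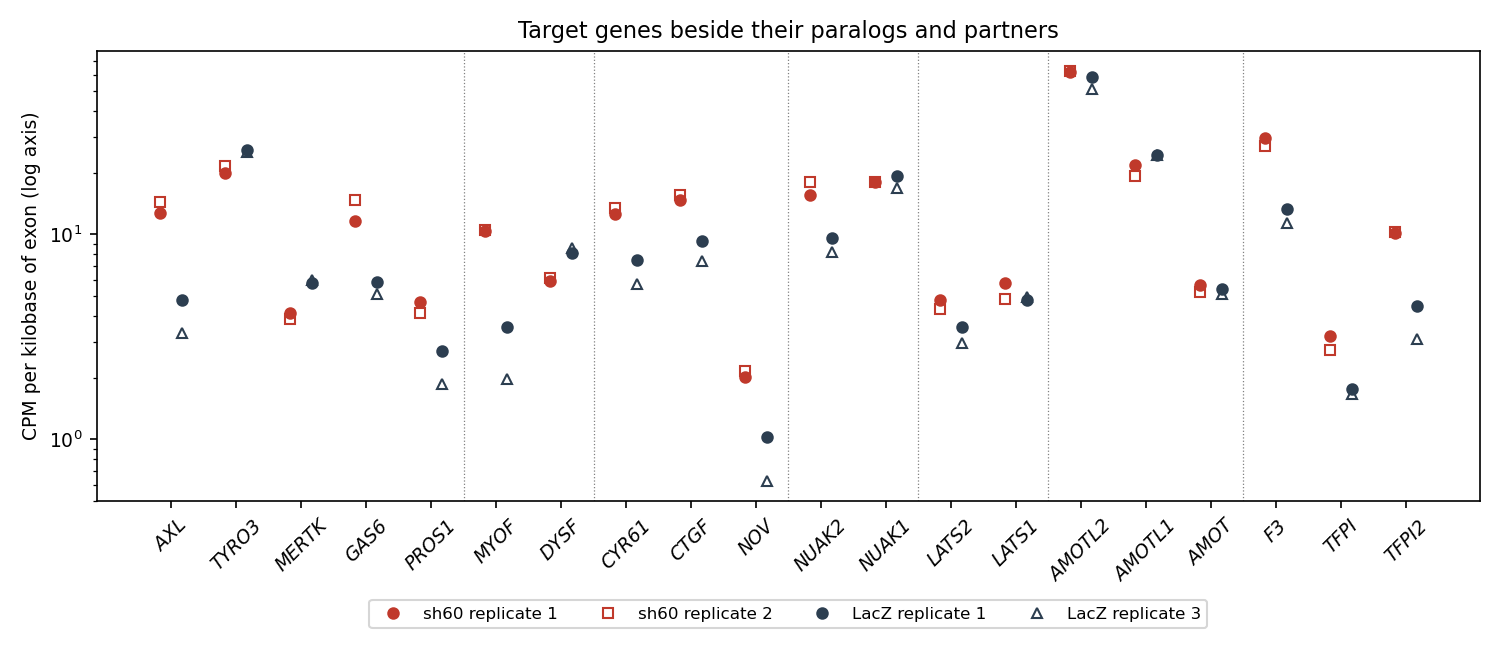
Level per length (CPM per kilobase of exon, log axis) of target genes, their paralogs and partners in the 2 sh60 libraries (red, left) and the 2 LacZ libraries (dark, right), with dotted lines between families. AXL and the TAM ligand genes GAS6 and PROS1 are higher in sh60, TYRO3 and MERTK lower, and NUAK1, LATS1 and AMOT have overlapping libraries.

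CYR61, CTGF and ANKRD1 are also known as targets of SRF with its MRTF coactivators, which respond to actin. Of 17 tested genes of an SRF and MRTF target list, 14 rose, 0 fell and 3 did not pass. Their median log2 fold change was 0.82, where 15.8% of all genes tested rose and 13.0% fell. The list was chosen with earlier results of these data known, so these counts are a description and not independent support. MYL9, a myosin light chain, rose 3.32-fold to 328.4 and 403.2 CPM in sh60, against 121.0 and 99.4 CPM in LacZ (edgeR adjusted p = 6.51e-09). TAGLN, transgelin, rose 2.81-fold (adjusted p = 2.00e-07), and the tropomyosins TPM1 and TPM2 rose 2.26-fold (2.99e-07) and 1.91-fold (2.28e-07). SRF itself, ZYX and FLNA did not pass. The number that rose was 12 without LacZ replicate 3 and 14 or 16 when another library was left out.

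A wider conserved YAP signature, first defined in breast epithelial cells, split. Of its 50 tested genes outside the 10, 17 rose, 13 fell and 20 did not pass, with a median log2 fold change of 0.054, beside 15.8% and 13.0% of all genes tested that rose and fell. Those that rose most clearly encode matrix, adhesion and signalling proteins. THBS1, thrombospondin, rose to 157.9 and 162.4 CPM in sh60, against 64.9 and 39.3 CPM in LacZ (3.08-fold, edgeR adjusted p = 3.07e-07). DDAH1, which breaks down methylated arginine, rose 2.10-fold (edgeR adjusted p = 5.05e-07). Among those that fell were the guidance ligand SLIT2 (log2 fold change -0.86, 1.07e-05), the tumour suppressor DLC1 (-0.54, 0.000761), the topoisomerase TOP2A (-0.47, 0.000772) and the actin bundler FSCN1 (-0.40, 0.00140). Without LacZ replicate 3, 12 rose and 7 fell, without LacZ replicate 1, 16 and 5, and DLC1 was then not called (0.104). After trends with GC and length were taken out, 14 rose and 20 fell. TGFB2 and ASAP1 stand in both this list and the 12 other signature genes, GAS6 also stands among the partners, and FLNA among the SRF targets.

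**Figure D5:**
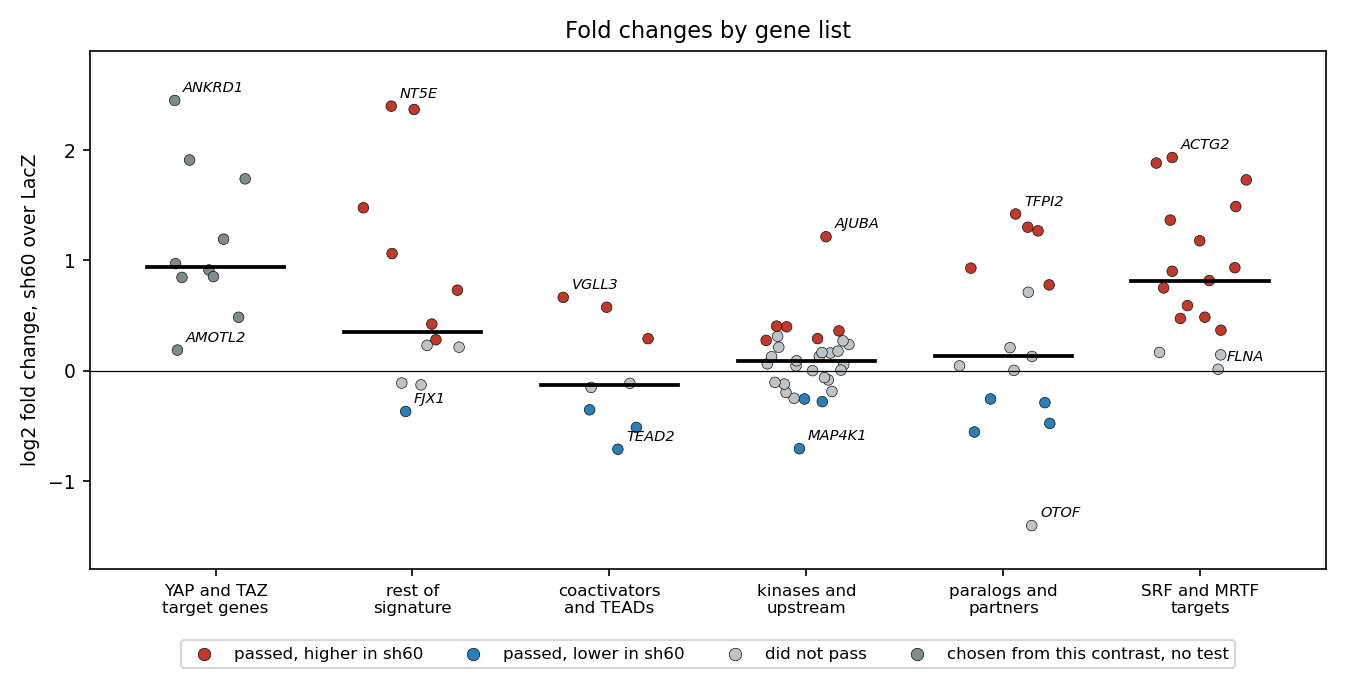
Log2 fold changes (sh60 over LacZ) of the tested genes of each list but the wider conserved signature, with a line at the median and the extreme genes named. Red genes passed edgeR's test as higher in sh60, blue as lower, pale grey did not pass, and dark grey marks the target genes, which were chosen from this contrast. The medians are 0.94 for the target genes, 0.35 for the rest of the signature and 0.82 for the SRF and MRTF targets, and lie between -0.13 and 0.13 for the other lists.

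The genes whose pattern over the 4 libraries lay closest to the mean of the 10 targets were TPM1, AJUBA, FN1, CDH13 and CTHRC1. The measure was the root mean square difference of log2 CPM after each gene's mean was subtracted, among genes of 5 CPM or more. It was 0.0211 for TPM1 and 0.0340 to 0.0397 for the other 4, against 0.0902 for F3, the closest of the targets themselves, and 0.685 for ANKRD1, the farthest. The 5 were the smallest values of a search over all other such genes. Nothing is read from their lying below the values of only 10 targets. FN1, which encodes fibronectin, had a mean of 1844 CPM in sh60 and 850.0 CPM in LacZ.

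Fibroblasts express many YAP targets, and their markers were mixed. Of 9 tested of 10 such markers 4 rose, 2 fell and 3 did not pass, where 15.8% of all genes tested rose and 13.0% fell. The summed level of the 10 was 929 to 1093 CPM in sh60 and 447 to 544 CPM in LacZ. Without COL1A1, a sum chosen after seeing the data, the groups overlapped. The other 9 summed to 375.6 and 409.4 CPM in sh60 and to 402.8 and 362.2 CPM in LacZ. Within that sum opposite differences offset each other. THY1 had means of 182.2 CPM in sh60 and 231.3 CPM in LacZ, and COL1A2 of 73.4 and 16.6 CPM. COL1A1 rose to 553.7 and 684.0 CPM in sh60, against 141.4 and 84.9 CPM in LacZ (edgeR adjusted p = 1.06e-08), COL1A2 rose 4.43-fold, LUM 3.11-fold and POSTN 1.99-fold. The log2 fold change of LUM, 1.61 with all libraries, was 2.27 without LacZ replicate 1 and 1.20 without LacZ replicate 3. THY1 and PDGFRA fell, calls that were lost without LacZ replicate 1 (adjusted p = 0.125 and 0.281) or LacZ replicate 3 (0.107 and 0.243), and for PDGFRA under 4 other alternatives too. PDGFRB, COL3A1 and DCN did not pass, FAP was under 1 CPM in every library, and none of the 10 was at 0 in any library. The fibroblast markers given here by name were picked with their values known. The part of such cells in the levels of the target genes was not tested, and in bulk RNA more cells of a type and more RNA per cell cannot be told apart.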

How the data were processed

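The values are raw read counts per gene, deposited as 1 table per library. STAR 2.7.6a and the build hg19 are named for the alignment, per the submitters' processing notes. Per the file headers, featureCounts (Subread 2.0.0, strand setting 2) summed exon reads into the counts of each gene. The command sets no option for multi-mapping or overlapping reads, so these were left out by default and genes with near-identical copies are uncertain. The deposited tables also give the summed exon length, used here for levels per kilobase.

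sh60 was compared with LacZ by edgeR 4.0.16 (R 4.3.3; glmQLFit, glmQLFTest) with TMM scaling over all 4 libraries, after filterByExpr left 16040 of 20937 genes with at least 1 count. Benjamini-Hochberg adjustment ran across the whole table, and 0.05 was the threshold. Group differences are log2 fold changes with their SE. The common biological coefficient of variation was 7.33%. Replicates were not repeat deposits of a library: a chi-square of their counts was 16.8 times its degrees of freedom for sh60 and 6.19 times for LacZ. The fit was tested on simulated data.

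The target genes and the gene lists were chosen with earlier results of these data known, so no p over a list is given. Named genes were the targets, BEND3, YAP1, WWTR1, TEAD1 to TEAD4, and for each list up to 4 genes past the threshold in each direction with the smallest p; others are said to be named after their values were seen or are list counts of 5 or fewer. Alternatives were other scalings, DESeq2 1.42.0, limma-voom (limma 3.58.1), other filters, leaving out each library, and, added after seeing the data, removal of loess trends on GC content (GENCODE transcripts, matched for 94.2% of tested genes) and exon length. Promoter sequences are from RefSeq on GRCh38.p14; only their letters and their own coordinates were used. A gene that the rule names in the conserved signature is not reported here.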

Additional observations from a re-analysis of the deposited data

How the results depend on the processing

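The median log2 fold change of the 10 target genes kept its sign under every alternative run, between 0.80 without LacZ replicate 3 and 1.12 without LacZ replicate 1. No target gene changed sign in any of the 12 alternatives, and 7 of the target genes moved by more than the spread between replicates, each time without LacZ replicate 1. The gap between the 2 LacZ libraries enters both that shift and that spread, so little can be read from this count. With 1 library left out, the number of genes called ran from 2287 to 5486, that of the other signature genes from 5 to 9, of the Hippo kinases and inputs from 2 to 14, and of the conserved signature from 19 to 36. The Hippo count was 14 with GC and length trends removed. The log2 fold change of LATS1, 0.13 and not called with all libraries, was -0.0076 without sh60 replicate 1 and 0.26, then called, without sh60 replicate 2. Counts of the coactivators and TEADs, of the paralogs and partners and of the SRF and MRTF targets stayed within 1.5 times. Causes were not tested. No paired analysis was possible because the groups share only replicate number 1. With 2 libraries a group the spread is estimated largely across genes, and a fit without 1 library assumes that the lone library varies like the others.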

Other observations

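The promoter search was also run on the 12 other genes of the signature. Of these, 8 had a RefSeq window, and the TEAD motif was found in 3 of the 8, against 11.9% of all windows, the AP-1 motif in 0 and the CArG box in 0. ASAP1, GADD45A, DOCK5 and ARHGEF17 were not matched.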
